A study of Bos taurus with 14 samples.

Results

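The miR-10, miR-99/100 and miR-125 families were followed in peripheral white blood cells (PWBC) as 7 mature miRNAs, chosen by name: bta-miR-10a and bta-miR-10b, bta-miR-99a-5p, bta-miR-99b and bta-miR-100, and bta-miR-125a and bta-miR-125b. All 7 were found among the 1030 mature names of the count table, and all 7 were among the 341 miRNAs that reached at least 1 CPM (counts scaled to a sum of 1000000 per library) in at least 7 of the 14 heifers. The animals were Angus-Simmental crossbred heifers bled at weaning, before any breeding, with 1 small RNA library per heifer. Of these, 7 later conceived to artificial insemination (AI) and are called fertile (FH), and 7 did not become pregnant, to AI or to the bulls used after it, and are called subfertile (SFH). Both groups were picked to be alike in weaning age and weight, and estrus synchronization came after the blood was drawn. PWBC are a mixture of all circulating leukocytes, so a lower value can mean fewer cells of a type or less of the miRNA per cell, and these cannot be told apart in bulk libraries.

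MicroRNAs guide the silencing machinery to mRNAs through the seed, a short stretch near the 5′ end, and miRNAs with the same seed are grouped as a family. The miR-10 genes lie inside the Hox clusters, and the miR-10 family is known for repressing Hox transcripts and for its expression along the body axis and in blood progenitors. The miR-99/100 and miR-125 families are commonly transcribed together with a let-7 gene, are known from blood stem and progenitor cells, and include regulators of mTOR (miR-99/100) and of apoptosis and myeloid output (miR-125). RefSeq gene models on ARS-UCD2.0, a later cattle assembly than the one used for the counts, show that *MIR10A* overlaps *HOXB3* and neighbours *HOXB4*, and *MIR10B* overlaps *HOXD4*. The same annotation places *MIR99A*, *MIRLET7C* and *MIR125B-2* next to each other, *MIR100*, *MIRLET7A-2* and *MIR125B-1* next to each other, and *MIR99B*, *MIRLET7E* and *MIR125A* next to each other. Mature bta-miR-125b is therefore made from 2 precursor genes in separate clusters, and its reads cannot be assigned to either. The members of a pair such as miR-10a and miR-10b, or miR-99a and miR-100, are nearly identical in sequence, so the split of reads between them is uncertain, and this bears most on the scarcer member of each pair.

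The libraries held 1754971 to 5468341 counts on mature miRNAs (median 2870197). As a check of the cell source, the summed CPM of 4 lymphocyte miRNAs (among them miR-150 and miR-342) was 64831 to 141408 per heifer. The 3 miRNAs listed as myeloid, miR-223, miR-142-5p and miR-142-3p, summed to 21272 to 44970 CPM, and miR-223 alone ranged from 11921 to 26640 CPM. The erythroid miRNAs miR-451 and miR-486 summed to 1463 to 9236 CPM, with the erythroid bta-miR-144 at 0 counts in every heifer. The platelet and endothelial miR-126 arms summed to 4.52 to 68.3 CPM, 3 stromal miRNAs to 145 to 558 CPM, and the epithelial bta-miR-200c, the 1 tested miRNA of its list, ranged from 54.9 to 249 CPM. Library 29 (FH) had no count for 70 of the 341 retained miRNAs, although its total of 4506020 counts was among the highest. The others had no count for 7 to 60, with 60 in FH library 20 and 56 in SFH library 30. Some miRNAs were far lower in 1 library than in any other. Where the next lowest library held at least 10 CPM, libraries 29 and 20 each had 3 miRNAs under 25% of it.

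The 7 miRNAs together took 3604 ± 727 CPM (SD, n = 14), which lay between 1952 CPM in FH heifer 29 and 4740 CPM in SFH heifer 26. By family, miR-125 held 40.1 ± 8.7% of this sum, miR-99/100 30.0 ± 6.2% and miR-10 29.9 ± 10.3% (SD, n = 14). The miR-125 share was 43.8 ± 8.8% in the FH and 36.4 ± 7.5% in the SFH heifers, with overlapping ranges of 31.7 to 57.9% and 27.7 to 51.2%, and was not tested. Levels spanned a wide range within each family. bta-miR-10a averaged 1042 ± 390 CPM (SD, n = 14, as are the values that follow) and was 72nd of the 341 miRNAs by mean level, whereas bta-miR-10b averaged 26.8 ± 19.6 CPM and was 215th. bta-miR-99a-5p averaged 904 ± 278 CPM, bta-miR-99b 165 ± 69.3 CPM and bta-miR-100 13.7 ± 8.67 CPM. bta-miR-125a and bta-miR-125b were alike in level, with 774 ± 350 CPM and 679 ± 239 CPM.

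**Figure D1:**
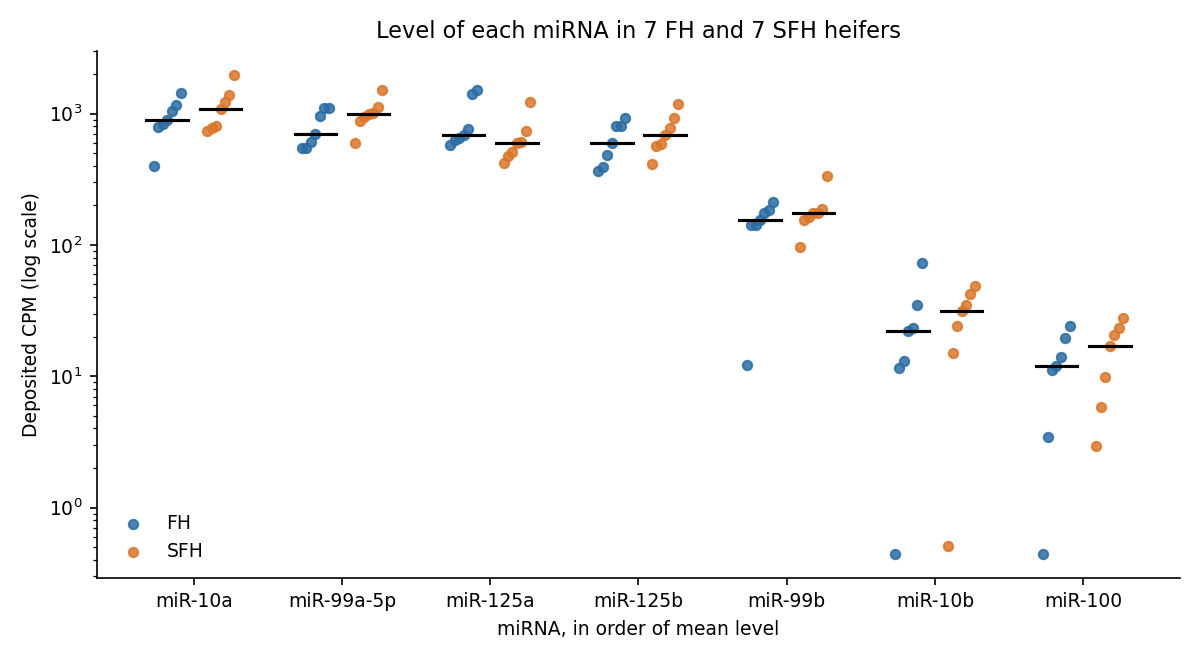
Deposited CPM (log scale) of each miRNA in every heifer, with 7 FH heifers in blue, 7 SFH heifers in orange and the group median as a black bar. The 4 abundant miRNAs overlap each other between 363 and 1981 CPM, miR-99b lies lower, and single heifers fall to under 1 CPM for miR-10b and miR-100.

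Neighbours in the order of mean log2 level were compared within heifers by an exact sign-flip permutation test (two-sided, n = 14, 6 comparisons). The 4 most abundant, bta-miR-10a, bta-miR-99a-5p, bta-miR-125a and bta-miR-125b in that order, did not differ from their neighbours beyond the spread between heifers (exact p = 0.377, 0.183 and 0.342). Farther apart in this order, and outside the 6 comparisons, bta-miR-99a-5p was above bta-miR-125b in 12 of 14 heifers (exact p = 0.000854). bta-miR-10a was above bta-miR-125b in 10 of 14 heifers (exact p = 0.0131) and above bta-miR-125a in 10 of 14 (exact p = 0.0723). Within groups, bta-miR-125a was above bta-miR-125b in 6 of 7 FH heifers (exact p = 0.0469) and bta-miR-99a-5p above bta-miR-125a in 6 of 7 SFH heifers (exact p = 0.0469), each before any adjustment for the number of comparisons. bta-miR-10a was above bta-miR-99a-5p in 7 of 14 heifers, and neither was the higher in most animals. bta-miR-125b was above bta-miR-99b in 14 of 14 heifers, by a mean of 2.17 ± 0.90 on the log2 scale (SD; exact p = 0.000122, the smallest this test can give). bta-miR-99b was above bta-miR-10b in 14 of 14 heifers, by 3.05 ± 1.51 (exact p = 0.000122). bta-miR-10b was above bta-miR-100 in 11 of 14 heifers, with log2 ratios between −4.41 and 6.29 (exact p = 0.353), and below it in heifers 25, 29 and 30, the last pair being the libraries with 2 counts of bta-miR-10b. The place of bta-miR-125b depended on how its precursors are handled. Its 2 precursor entries hold 28444 and 28432 counts over all heifers, nearly the same number, and the higher one was used here. Adding both entries counts nearly all of these reads again and moves the mean log2 ratio of bta-miR-125a to bta-miR-125b from 0.16 to −0.84, a change that the doubling itself fixes.

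Among the abundant miRNAs the heifers differed moderately, and this spread holds both animal and library. bta-miR-99a-5p had the smallest spread of the 7, with a biological coefficient of variation of 33.2% in edgeR, where the trend for miRNAs of its level was 39.1%. The same quantity was 36.6% for bta-miR-10a, 37.1% for bta-miR-125b and 39.1% for bta-miR-125a, each at or below the trend for its level (38.5%, 40.4% and 39.8%). It was 54.5% for bta-miR-99b against a trend of 53.9%. For bta-miR-10b it was 102% against a trend of 103%, and for bta-miR-100 99.3% against 125%. These values are drawn toward the trend by edgeR's estimation, so how close they lie to it is partly built in. Counting error alone gave 1.78% for bta-miR-10a at its mean of 3162 counts, but 11.7% for bta-miR-10b and 14.9% for bta-miR-100, which averaged 73.1 and 45.1 counts.

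bta-miR-10a, from the HoxB cluster, ranged from 403 to 1445 CPM in FH (median 891) and from 740 to 1981 CPM in SFH (median 1082). The lowest value of all 14 was FH heifer 29 and the highest SFH heifer 21, and the remaining heifers of the groups overlapped. bta-miR-10b, from the HoxD cluster, ranged from 0.444 to 73.2 CPM in FH (median 22.2) and from 0.505 to 48.5 CPM in SFH (median 31.1). Both minima were 2 counts, in FH heifer 29 (95% exact Clopper-Pearson interval 0.0538 to 1.60 CPM) and SFH heifer 30 (0.0612 to 1.83 CPM), while the other 12 heifers had 24 to 165 counts. These intervals cover counting error only, since PCR copies were not removed. Neither library was shallow, with 4506020 and 3958469 counts. The ratio of bta-miR-10a to bta-miR-10b counts was 46.4 in the median heifer and was 907 in heifer 29 and 1464 in heifer 30.

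bta-miR-99a-5p ranged from 543 to 1111 CPM in FH (median 701) and from 601 to 1508 CPM in SFH (median 999), with SFH heifer 30 the highest. Of the SFH heifers, 6 of 7 exceeded the median FH heifer once TMM-normalized, and the ranges overlapped. The passenger arm, bta-miR-99a-3p, did not pass the CPM filter and had 144 counts in 6 heifers, 71 of them in FH heifer 31. No other arm of the 7 miRNAs has an entry of its own in the table. bta-miR-99b ranged from 12.2 to 211 CPM in FH (median 154) and from 97.2 to 338 CPM in SFH (median 175). FH heifer 29 had 55 counts of it (95% exact interval 9.20 to 15.9 CPM), far under the next lowest FH heifer at 143 CPM, and SFH heifer 26 was highest. bta-miR-100 ranged from 0.443 to 24.1 CPM in FH (median 12.0) and from 2.93 to 27.8 CPM in SFH (median 16.9). Its lowest value was 1 count, in FH heifer 20 (95% exact interval 0.0112 to 2.47 CPM), the same heifer that had the highest bta-miR-10b.

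bta-miR-125a ranged from 579 to 1520 CPM in FH (median 693) and from 418 to 1237 CPM in SFH (median 601). In FH, heifers 25 and 31 (1520 and 1403 CPM) lay far above the other 5, and in SFH heifer 26 lay far above the other 6. bta-miR-125b ranged from 363 to 925 CPM in FH (median 594) and from 415 to 1188 CPM in SFH (median 684), with heifer 26 again highest. The ratio of bta-miR-125a to bta-miR-125b counts, which needs no normalization, had a median of 1.47 in FH (0.827 to 1.91) and 1.04 in SFH (0.518 to 1.45). The FH heifers thus reached higher ratios, and the ranges overlapped.

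The comparison of SFH with FH asks whether levels at weaning differ by later pregnancy outcome. None of the 7 miRNAs passed the thresholds used for these data (raw p no higher than 0.05 and absolute log2 fold change no lower than 0.5) in edgeR's quasi-likelihood test. Over all 341 miRNAs tested, 3.81% passed, 1.47% higher and 2.35% lower in SFH. On the raw p alone, edgeR gave 0 of the 7 and 5.87% of all miRNAs, and the exact permutation test 0 of the 7 and 6.16% of all. With both thresholds DESeq2 gave 0 of the 7 and 4.69% of all, and limma-voom 0 of the 7 and 6.74% of all. After Benjamini-Hochberg adjustment over the 341, edgeR called 0.0% of all miRNAs at 0.05. The ranges of FH and SFH overlapped for each of the 7, and 0.0% of the 341 had groups that did not overlap.

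bta-miR-125a had the largest difference of the 7 relative to its error. Its mean was 893 ± 394 CPM for FH against 655 ± 277 CPM for SFH (SD over 7 heifers each). Once TMM-normalized all 7 FH heifers exceeded the median SFH heifer. On deposited CPM FH heifer 29, at 579 CPM, lay below the SFH median of 601 CPM. The TMM factor of that heifer, 0.817, was the lowest of the 14. The log2 fold change and tests that follow are for bta-miR-125a. Its log2 fold change was −0.50 (standard error 0.28, 95% interval −1.08 to 0.07), with an edgeR p-value of 0.0836 and an adjusted p-value of 0.890. An exact permutation test (two-sided, 7 heifers each) gave p = 0.114. Single heifers moved the fold change, to −0.73 without SFH heifer 26, where it passed both thresholds with an adjusted p of 0.484 in edgeR, and to −0.29 without FH heifer 25, with an adjusted p of 0.981 in edgeR.

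The other 6 miRNAs had fold changes above 0. bta-miR-99a-5p had a mean of 797 ± 257 CPM for FH against 1011 ± 273 CPM for SFH (SD over 7 heifers each), a log2 fold change of 0.30 (standard error 0.22, 95% interval −0.16 to 0.76), which was 0.19 without SFH heifer 30. bta-miR-10a had 938 ± 325 CPM for FH against 1146 ± 445 CPM for SFH, a log2 fold change of 0.24 (standard error 0.25, 95% interval −0.29 to 0.77), which fell to 0.03 without SFH heifer 21. bta-miR-125b had 0.19 (95% interval −0.34 to 0.73), which was 0.056 without SFH heifer 26, and bta-miR-99b 0.31 (−0.52 to 1.13), which was 0.08 without FH heifer 29. The intervals of the scarce miRNAs were wide, −1.55 to 1.76 for bta-miR-10b and −1.46 to 1.93 for bta-miR-100, and hold a 2-fold change in either direction. Their fold changes were 0.11 and 0.23 and changed sign to −0.08 and −0.038 without SFH heifer 21, and that of bta-miR-10b was −0.12 without FH heifer 29. The adjusted p-values of the 7 miRNAs in edgeR were 0.890 to 0.977, and their exact permutation p-values 0.114 to 0.752. The median log2 fold change of the 7 was 0.23 and that of all 341 was 0.06, with 55.1% of the 341 above 0.

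**Figure D2:**
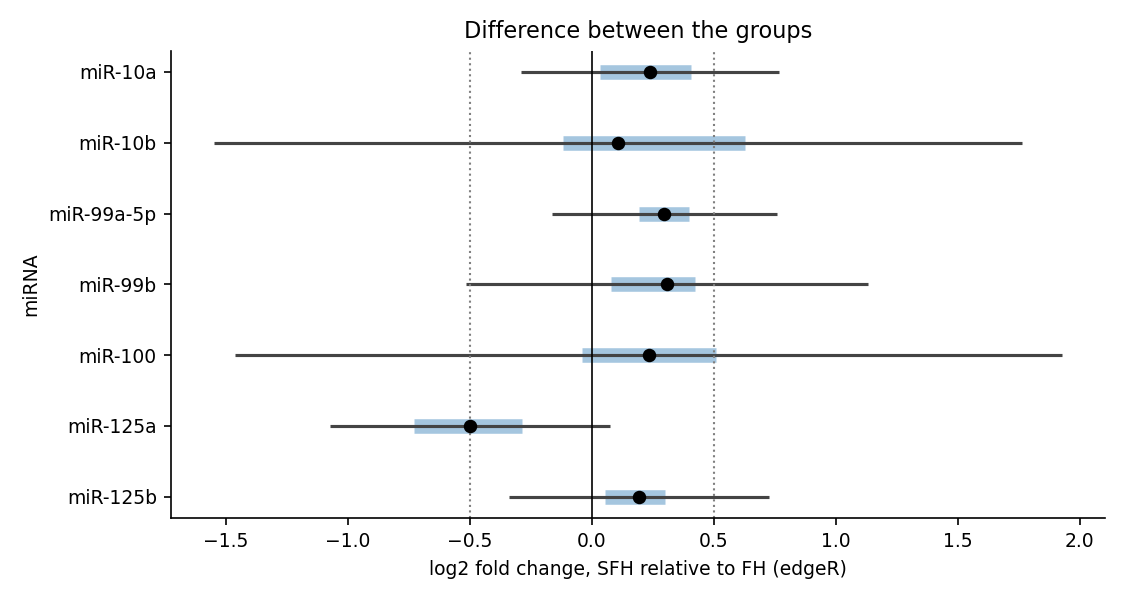
Log2 fold change of SFH relative to FH for each miRNA from edgeR (black point) with its 95% interval (line) and the range over the 14 fits that each left out 1 heifer (blue bar). Dotted lines mark the threshold of 0.5 in either direction, and every interval includes 0.

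The miRNAs that share a cluster or a role with these families were looked at next. The let-7 miRNAs of the 3 clusters are let-7a-5p, let-7c and let-7e. Past both thresholds were 0 of 3 in edgeR (3.81% of all 341), 1 of 3 in DESeq2 (4.69%) and 0 of 3 in limma-voom (6.74%). The 1 was bta-let-7a-5p, with 76725 ± 16968 CPM for FH against 58006 ± 2923 CPM for SFH (SD over 7 heifers each) and a log2 fold change of −0.49 (adjusted p = 0.415 in edgeR), just short of the threshold on size and the only 1 of the 3 past that on the raw p. The paper also reported bta-let-7a-5p as lower in SFH. Its mean of 67366 CPM was far above the 13.7 CPM of bta-miR-100. Reads of bta-let-7a-5p were not assigned to a gene, so its difference cannot be credited to the cluster of *MIR100*. bta-let-7c had 1673 ± 682 CPM for FH against 1320 ± 257 CPM for SFH, and bta-let-7e 507 ± 206 CPM against 401 ± 88.9 CPM, with log2 fold changes of −0.42 and −0.41 (adjusted p = 0.890 for both in edgeR), which were −0.17 and −0.14 without FH heifer 25. Of the other miRNAs encoded in Hox clusters, bta-miR-196b was tested and had 27.6 ± 20.2 CPM for FH against 28.1 ± 14.7 CPM for SFH (log2 fold change −0.05, adjusted p = 0.978 in edgeR). bta-miR-196a had 3 counts in all and bta-miR-615 had 0. Of 9 miRNAs known from blood stem and progenitor cells, 8 were tested. Of these 8, 0 passed both thresholds in edgeR and DESeq2 and 1, bta-miR-193b, in limma-voom (6.74% of all 341). Their median log2 fold change was −0.15, against 0.06 for all 341. bta-miR-155, the most abundant of them, had 8522 ± 1276 CPM for FH against 7532 ± 1031 CPM for SFH (adjusted p = 0.890 in edgeR).

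Co-variation was measured as Pearson's r of log2(TMM-normalized CPM + 0.5) over the 14 heifers, with permutation p-values adjusted over all 57970 pairs of the 341 miRNAs. Each r rests on the same 14 libraries and the same normalization. Of the 21 pairs among the 7 miRNAs, 2 had r above 0.6 with a raw p no higher than 0.05, and of all pairs 2.84% did. The 21 pairs ran from −0.39 to 0.79 with a median of 0.07, and the median over all pairs was 0.01. After adjustment 0 of the 21 pairs passed 0.05, against 0.0656% of all pairs. As a whole the 7 miRNAs were not shown to vary together over these 14 heifers, and the pairs are therefore described singly.

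**Figure D3:**
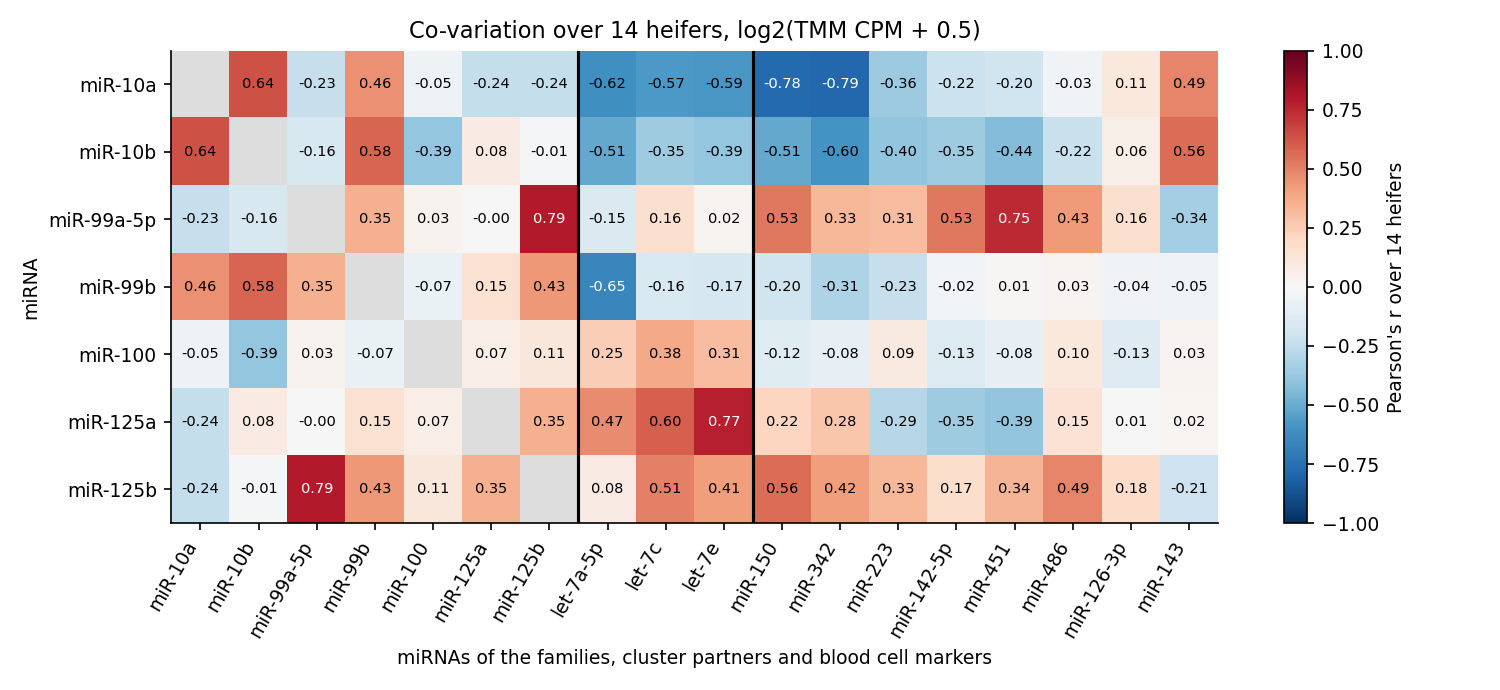
Pearson's r over 14 heifers between each of the 7 miRNAs (rows) and the 7 miRNAs themselves, the let-7 cluster partners and 8 blood cell markers (columns, separated by black lines). The highest values are those of miR-99a-5p with miR-125b (0.79) and miR-125a with let-7e (0.77), and the lowest are those of miR-10a with miR-342 (−0.79) and miR-150 (−0.78).

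The closest pair was bta-miR-99a-5p and bta-miR-125b, which share the cluster with *MIRLET7C*. Their r was 0.79 (permutation p = 0.00095, adjusted p = 0.192) and Spearman's rho 0.86 (permutation p = 0.00018), and 0.345% of all pairs had an r at least as high. It was 0.75 within FH (exact permutation p = 0.0679) and 0.82 within SFH (exact permutation p = 0.0280, n = 7 in each group), and 0.78 once the 2 heifers most distant in bta-miR-99a-5p from its median were left out. With each heifer left out in turn it stayed between 0.75 and 0.86. The ratio of bta-miR-125b to bta-miR-99a-5p counts was held between 0.587 and 1.14 (median 0.723), with a standard deviation of 0.31 on the log2 scale. bta-miR-100, in the other miR-125b cluster, had r = 0.11 with bta-miR-125b (permutation p = 0.703; rho = 0.24), which was 0.49 without FH heifer 20, the library with 1 count of bta-miR-100. bta-let-7c had r = 0.51 with bta-miR-125b (permutation p = 0.0636; rho = 0.59, permutation p = 0.0309, adjusted p = 0.602 for r) and 0.16 with bta-miR-99a-5p (permutation p = 0.583).

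The third cluster divided. bta-miR-125a and bta-let-7e had r = 0.77 (permutation p = 0.00145, adjusted p = 0.222; rho = 0.65, permutation p = 0.0141), with 0.72 in FH and 0.79 in SFH (exact permutation p = 0.0577 and 0.0486, n = 7 each). It was 0.65 once the 2 heifers most distant in bta-miR-125a from its median were left out. bta-let-7e was the miRNA most like bta-miR-125a among the 340 others. bta-miR-99b, from the same cluster, had r = 0.15 with bta-miR-125a (permutation p = 0.573) and −0.17 with bta-let-7e (permutation p = 0.507). Without FH heifer 29 these were 0.37 and 0.34. In that heifer bta-miR-125a was near the level of the others at 579 CPM and bta-let-7e was at 503 CPM, while bta-miR-99b was at 12.2 CPM. The ratio of bta-miR-125a to bta-miR-99b counts was 47.4 there, against a median of 4.11 over all heifers and highest values of 9.84 in the other FH heifers (heifer 25) and 7.57 in SFH.

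The Hox-linked pair bta-miR-10a and bta-miR-10b had r = 0.64 (permutation p = 0.0151, adjusted p = 0.433) and rho = 0.56 (permutation p = 0.0405) over the 14 heifers. It rested on the heifers with 2 counts of bta-miR-10b: r was 0.44 without FH heifer 29, 0.36 without heifers 29 and 30 together, and 0.39 when the 2 heifers most distant in bta-miR-10a from its median were dropped. Within the groups it was 0.74 in FH (exact permutation p = 0.0780) and 0.55 in SFH (exact permutation p = 0.187, n = 7 each). bta-miR-10b and bta-miR-99b had r = 0.58 (permutation p = 0.0738; rho = 0.38, permutation p = 0.186), which was 0.02 without heifer 29. The highest r of bta-miR-100 with any of the other 6 was 0.11 over all heifers, but single libraries set this: without FH heifer 20 it was 0.49 with bta-miR-125b and 0.29 with bta-miR-99a-5p, and without FH heifer 29 it was 0.41 with bta-miR-99b.

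**Figure D4:**
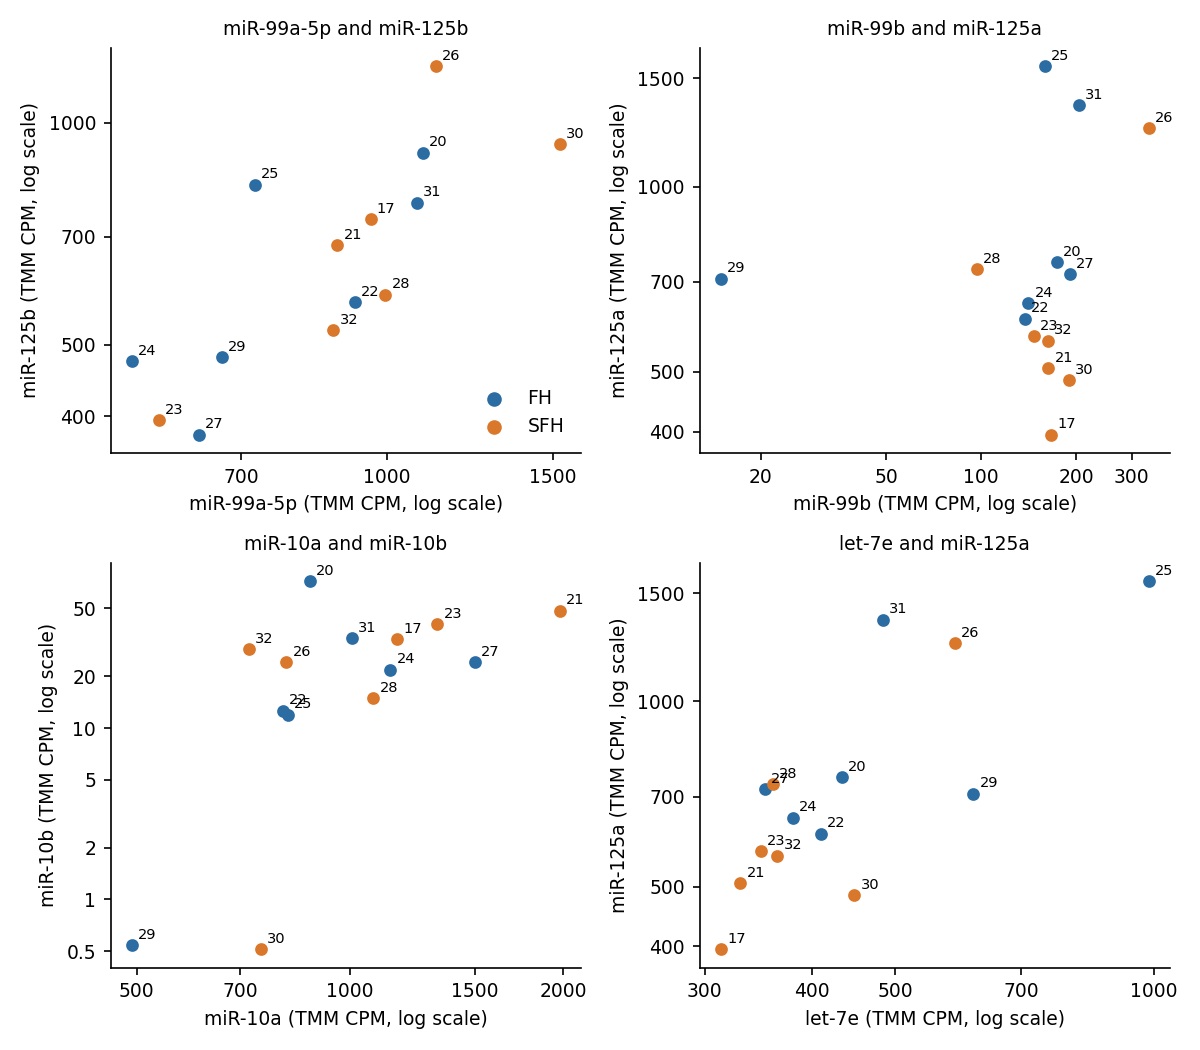
TMM-normalized CPM of 4 pairs of miRNAs on log axes, 1 point per heifer with its number, FH in blue and SFH in orange. miR-99a-5p and miR-125b rise together, heifer 29 lies apart for miR-99b and heifers 29 and 30 for miR-10b, and miR-125a follows let-7e.

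For each of the 7 miRNAs the 3 miRNAs with the highest r over the 14 heifers were listed from the 340 others. For bta-miR-10a these were bta-miR-425-5p (r = 0.84), bta-miR-151-3p (0.80) and bta-miR-423-3p (0.72), abundant miRNAs with mean levels of 5012 to 10720 CPM, and in all 3 FH heifer 29 was the lowest of the 14. Their r was at least 0.57 with any heifer left out, and 0.48 to 0.63 with both heifers most distant in bta-miR-10a dropped. For bta-miR-10b they were bta-miR-1248 (0.83) and bta-miR-129 and bta-miR-129-5p (0.74 each), the last pair being identical in all 14 libraries, and heifers 29 and 30 had 0 counts of each. For bta-miR-99b they were bta-miR-744 (0.86), bta-miR-31 (0.84) and bta-miR-10172-3p (0.82). Heifer 29 was lowest in all 3 of these, with 0.222 CPM of bta-miR-744 where the other 13 had at least 26.8 CPM and 0 counts of bta-miR-31 where the others had at least 5.53 CPM, and without it their r was 0.22, 0.40 and 0.59. The part of that library in these relations was not tested further.

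For bta-miR-99a-5p the list after bta-miR-125b held bta-miR-451 (0.75) and bta-miR-339b (0.73), and for bta-miR-125b after bta-miR-99a-5p it held bta-miR-139 (0.59) and bta-miR-150 (0.56). For bta-miR-125a the list after bta-let-7e held bta-miR-7857-5p (0.63) and bta-miR-328 (0.61). For bta-miR-100 it was bta-miR-210 (0.75), bta-miR-2285aj-5p (0.65) and bta-miR-2376 (0.64). The first of these was 0.34 and the second −0.12 without FH heifer 20, which had 1 count of bta-miR-100. That heifer was also lowest in both, with 1.33 CPM of bta-miR-210 and 0 CPM of bta-miR-2285aj-5p. The others had at least 18.7 and 15.9 CPM. The adjusted p-values of the listed pairs were 0.119 or more, the lowest being that of bta-miR-10a with bta-miR-425-5p. bta-miR-125b had r above 0.6 at a raw p no higher than 0.05 with 1 of the 340 others, where the median miRNA had 9, bta-miR-10a had 9 and bta-miR-10b had 13.

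Some single blood cell markers moved with some of these miRNAs. bta-miR-10a was lower in heifers with more of 2 of the 4 lymphocyte miRNAs: r was −0.78 with bta-miR-150 (permutation p = 0.00101, adjusted p = 0.194; rho = −0.70, permutation p = 0.00731) and −0.79 with bta-miR-342 (permutation p = 0.0007, adjusted p = 0.173; rho = −0.66, permutation p = 0.0136). With the other 2, bta-miR-155 and bta-miR-181a, r was −0.37 (permutation p = 0.201; rho = −0.32) and −0.05 (permutation p = 0.871; rho = −0.05). For the first 2, of all pairs, 0.202% and 0.181% had an r as low. The sign was the same within FH (−0.85 and −0.92, exact permutation p = 0.0214 and 0.00238) and within SFH (−0.74 and −0.66, exact permutation p = 0.0558 and 0.102, n = 7 each). With each heifer left out in turn r stayed between −0.88 and −0.67 for bta-miR-150 and between −0.95 and −0.68 for bta-miR-342. With both heifers most distant in bta-miR-10a dropped, r was −0.62 and −0.58. bta-miR-10b had r = −0.60 with bta-miR-342 (permutation p = 0.0206, adjusted p = 0.461; rho = −0.52, permutation p = 0.0617), and −0.49 without heifer 29. bta-miR-125b had the opposite sign with bta-miR-150 (r = 0.56, permutation p = 0.0387, adjusted p = 0.532; rho = 0.64, permutation p = 0.0174). Of the 4 lymphocyte miRNAs, only bta-miR-342 is given for bta-miR-10b and only bta-miR-150 for bta-miR-125b. These values therefore do not stand for the lymphocyte list, and the members left out may differ in size or sign. For the myeloid miRNAs no r is given in the text, so no relation with that list is described.

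bta-miR-99a-5p had r = 0.75 with the erythroid bta-miR-451 (permutation p = 0.0014, adjusted p = 0.220; rho = 0.65, permutation p = 0.0137), with 0.83 in FH and 0.74 in SFH (exact permutation p = 0.0248 and 0.0768, n = 7 each), 0.61 without SFH heifer 30, and 0.52 with both heifers most distant in bta-miR-99a-5p dropped. bta-miR-451 itself had 1412 ± 531 CPM for FH against 2398 ± 2191 CPM for SFH (SD over 7 heifers each, adjusted p = 0.890 in edgeR). SFH heifer 30 was at 7068 CPM, where the others reached at most 2818 CPM, and the medians were 1261 CPM in FH and 1362 CPM in SFH. The log2 fold change of bta-miR-451 was 0.72, and 0.19 without that heifer. The r of bta-miR-451 with bta-miR-486, the other erythroid marker tested, was 0.43. Of the tested erythroid miRNAs only bta-miR-451 is given for bta-miR-99a-5p, so the relation does not stand for the erythroid list. The part of lymphocyte or red cell content in the levels of bta-miR-10a and bta-miR-99a-5p was not tested. None of the marker miRNAs named here passed the thresholds between FH and SFH in edgeR, where 3.81% of all 341 did. The correlation of the 7 miRNAs with the log2 total count per library lay between −0.46 and 0.38, with raw permutation p-values of 0.0997 or more and adjusted p-values over the 341 of 0.925 or more.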

How the data were processed

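Small RNA from PWBC of 14 heifers was sequenced, with 1 library per heifer. The authors trimmed adapters and end bases with Cutadapt, mapped the reads with miRDeep2 to ARS-UCD1.2 and to the miRBase precursors and mature miRNAs of cattle, and deposited raw counts per mature miRNA and precursor without normalization. The authors also deposited CPM of the 341 miRNAs that passed their filter, which equal the counts divided by each heifer's total over these miRNAs. Adapter ligation and PCR copies are part of both, and no molecular tags were counted. Levels in the text are deposited CPM.

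Of several precursor entries of a name, the one with the highest total was used. miRNAs with CPM of at least 1 in at least 7 heifers were fitted with TMM normalization and edgeR 4.0.16 (quasi-likelihood test, R 4.3.3), with no term but the group, and p-values were adjusted by Benjamini-Hochberg over all 341. Standard errors are the fold change over the square root of its F statistic. DESeq2 1.42.0 and limma 3.58.1 were alternatives, with the other alternatives given at the end. Single miRNAs were also compared by exact permutation (two-sided) of mean log2(TMM CPM + 0.5). Correlations used 100000 resamples over all pairs, and exact tests over all pairings within a group. These ran in Python 3.11.15 (scipy 1.17.1, numpy 2.4.6, pandas 2.3.3) with fixed seeds, and the tests were tested on simulated data. All 11 precursor genes looked up were found by symbol in the RefSeq table.

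Named were the 7 miRNAs, the other arms of their precursors, the let-7 partners of their clusters, other Hox-cluster miRNAs, a blood stem and progenitor list, blood cell markers and, for each of the 7, the 3 miRNAs with the highest r. The members and lists were chosen with earlier results of these data known. Where a library holds 0 counts, a level of up to 3 counts is allowed, or 0.549 to 1.71 CPM, which covers counting error only. Each library is a different animal, so p-values measure the spread between animals together with that between library preparations. With 1 library per heifer these cannot be told apart.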

Additional observations from a re-analysis of the deposited data

Results flagged for a closer look

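Each of the 7 miRNAs was examined within FH and within SFH for a heifer far from the others of its group, by the gap to the nearest heifer as a share of the whole range of CPM. Of the 14 sets of 7 values, 3 held such a heifer. The limit used has a rate of about 1 in 20 only for independent sets of normally distributed values. These sets share the same libraries and are on linear CPM, so the 3 cannot be weighed against that rate. bta-miR-99b was at 12.2 CPM in FH heifer 29, with the next lowest FH heifer at 143 CPM and a gap of 0.656 of the range. bta-miR-99b was at 338 CPM in SFH heifer 26, with the next highest SFH heifer at 187 CPM and a gap of 0.625 of the range. bta-miR-125a was at 1237 CPM in SFH heifer 26, with the next highest at 736 CPM and a gap of 0.612 of the range. miR-99b and miR-125a lie in the same cluster, and both were highest of their group in heifer 26. High values there were not particular to this cluster, since bta-miR-125b was also highest of all heifers, at 1188 CPM. By rank from the lowest heifer, bta-miR-99a-5p was at 13, bta-miR-100 at 12, bta-miR-10b at 8 and bta-miR-10a at 5. In heifer 29 bta-miR-125a was at 579 CPM, the lowest of FH but close to the next.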

How the results depend on the processing

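The number of miRNAs past both thresholds was 13 of 341. It was 23 of 341 with limma-voom, 126 of 614 without a CPM filter and 20 with every precursor entry kept. In the last setting the entries of a name count apart. With each heifer left out in turn the number was 11 to 21. The number among the 7 was 0, and 0 to 1 (without SFH heifer 26) with each heifer left out. It was 1 (bta-miR-125a) without a CPM filter and with every precursor entry kept. Without the filter, this share of the 7 was below the share of all miRNAs tested. The number with an adjusted p-value of at most 0.05 was 0 in edgeR, 2 in DESeq2, 1 with every precursor entry kept and 0 to 1 with each heifer left out, and none of these calls was one of the 7. The fold change of bta-miR-125a was −0.53 without a CPM filter and −0.59 with every precursor entry, where it passed both thresholds, and otherwise −0.73 to −0.29 with single heifers left out. bta-miR-10b changed sign to −0.11 with the log2 total count as a covariate and ranged from −0.12 to 0.63 with single heifers left out, and bta-miR-100 was 0.70 with that covariate and ranged from −0.038 to 0.51 with single heifers left out. bta-miR-99b was 0.55 with limma-voom. The 6 fold changes above 0 stayed above 0 with relative log expression factors and with library totals only, which put the median of all 341 at 0.04 and 0.12 (TMM 0.06). The number of pairs with r above 0.6 was 2, but 1 with Spearman's rho, 1 (without FH heifer 29) to 3 (without SFH heifer 30) with single heifers left out, and 1 without heifers 29 and 30 together, a setting chosen after the data were seen. On linear CPM the number was again 2, but bta-miR-10a with bta-miR-10b was at 0.49 and bta-miR-99b with bta-miR-125b at 0.72. The cause of these changes was not tested. bta-miR-10b and bta-miR-100 had under 10 counts in a heifer and gave no value under the filter of 10 counts in every heifer. No paired analysis was possible because each heifer has its own number and the groups share none.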
